A study of Homo sapiens with 9 samples.

Results

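Smooth muscle cells contract through filaments of actin and myosin, and the genes compared here encode the thin filament and the proteins that bind, regulate or anchor it. They are ACTA2 and ACTG2 (smooth muscle actins), TAGLN (transgelin), CNN1 and CNN2 (calponins), TPM1 and TPM2 (tropomyosins), CALD1 (caldesmon), MYL9 (a myosin regulatory light chain) and VCL (vinculin). All 10 were found on the arrays, among 19775 genes measured. They are represented by 35 probe sets, which are groups of short probes for 1 transcript, each annotated to exactly 1 gene. ACTA2 and TAGLN were chosen by their measured changes in these arrays, and the comparison that led to the choice is not named, so their values are a description with no test in any comparison. The other 8 genes were added as relatives of those genes, with earlier results of these data known. Each of the 8 was tested with limma, with p-values adjusted over all genes by the Benjamini-Hochberg method and called at an adjusted p under 0.05. Shares over all genes stand beside their counts as a description and do not test the 8 as a set.

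The arrays hold RNA from WA09, an established human embryonic stem cell line, in 3 groups of 3 arrays. No treatment is listed for the pluripotent cells. Cells of the damage group were exposed for 5 h to an agent given only as DOX, used to damage DNA, at a dose not stated. Cells of the differentiating group were kept for 2 days with RA (retinoic acid, 1 µM), and no FGF was added to their medium. RA therefore coincides with the withdrawal of added FGF, and the treatments also differ in duration. Per the labels' protocols cells were kept on irradiated mouse fibroblasts or without feeder cells (then partly in medium conditioned by such fibroblasts), and which culture gave each array is not stated.

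Many of these genes are part of the contractile programme of smooth muscle, but fibroblasts and other cultured cells also make stress fibres with many of the same proteins. Transcription of many such genes is known to depend on SRF, a factor that binds a short DNA element called the CArG box. SRF is driven by the myocardin-related coactivators, which enter the nucleus when monomeric actin is drawn into filaments.

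The promoters that follow are shown because they carry this element or a close form of it. Each window runs from 250 bases before a transcription start to 50 bases after it, 5′ to 3′, from RefSeq on build GRCh38.p14. The CArG box was searched on both strands as CC, 6 letters that are each A or T, then GG, and in a looser form in which 1 of the 6 inner letters is C or G. Capitals mark the matches. The ACTA2 window lies on the minus strand of chr10:88952724-88953023 and is the second of its listed starts. The ACTG2 window lies on the plus strand of chr2:73892758-73893057 and the CNN2 window on the plus strand of chr19:1026358-1026657.
ACTA2: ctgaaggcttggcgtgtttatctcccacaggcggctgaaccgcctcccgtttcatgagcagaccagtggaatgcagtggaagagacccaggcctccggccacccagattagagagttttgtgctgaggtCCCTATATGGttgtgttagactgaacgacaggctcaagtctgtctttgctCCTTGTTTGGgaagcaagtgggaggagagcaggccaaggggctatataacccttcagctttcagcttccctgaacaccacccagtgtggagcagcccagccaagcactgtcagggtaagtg
ACTG2: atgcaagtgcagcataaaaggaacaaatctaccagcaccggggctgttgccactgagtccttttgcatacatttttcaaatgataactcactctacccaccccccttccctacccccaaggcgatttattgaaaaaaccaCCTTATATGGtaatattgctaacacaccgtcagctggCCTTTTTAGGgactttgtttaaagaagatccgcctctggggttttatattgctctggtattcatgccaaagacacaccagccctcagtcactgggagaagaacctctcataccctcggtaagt
CNN2: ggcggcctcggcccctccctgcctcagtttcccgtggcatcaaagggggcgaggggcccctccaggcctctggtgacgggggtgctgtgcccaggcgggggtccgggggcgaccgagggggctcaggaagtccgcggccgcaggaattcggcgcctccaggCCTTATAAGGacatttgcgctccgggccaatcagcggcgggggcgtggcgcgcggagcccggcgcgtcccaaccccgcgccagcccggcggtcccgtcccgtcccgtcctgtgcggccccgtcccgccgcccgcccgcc

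ACTG2 held 2 exact CArG boxes, CCTTATATGG beginning 110 bases before the start and CCTTTTTAGG at 73 bases. CNN2 held 1, CCTTATAAGG, at 89 bases. ACTA2 held 2 of the looser form, CCCTATATGG at 121 bases and CCTTGTTTGG at 71 bases. One of the CALD1 windows, on the plus strand of chr7:134711249-134711548, held the looser match CCTAAAGAGG at 26 bases. Of all 35116 promoter windows in the table, 1.29% held an exact box and 6.94% the looser form. Windows were found for 8 of the 10 genes (13 windows in all), and none for TAGLN and MYL9. An exact box was thus in windows of 2 of the 8 genes and the looser form in those of another 2. These counts are per gene, and a gene can have several windows, while the shares above are per window. The counts and the shares are therefore not like for like. The windows of CNN1, TPM1, TPM2 and VCL, the first ACTA2 window and 3 of the 4 CALD1 windows held neither. A match is a description of the letters and not evidence that SRF binds there.

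The values are log2 intensities, on which a difference of 1 is a doubling, and levels of different probe sets cannot be compared with each other. Arrays of 1 group correlated at 0.996 to 0.998 across genes, none of the 36 pairs of arrays was identical, and each array's median probe set fell between 4.62 and 4.68. Levels near or below that median are not shown to be above background. The third pluripotent array carried the lowest limma weight, 0.51, against 1.52 and 1.59 for the other pluripotent arrays. The labels do not state that a group's arrays came from separate cultures, so p-values reflect only how far these arrays differ, and that spread may be technical. RNA from a whole culture was measured, so a change in the share of cells that express a gene and a change in RNA per cell cannot be told apart.

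After 5 h of DOX every one of the 8 tested genes was higher. The largest rise among them was that of CNN1 at 5.67-fold, followed by ACTG2 at 2.32-fold, VCL at 2.03-fold and MYL9 at 1.96-fold. TPM2, CALD1 and CNN2 rose 1.49-fold to 1.52-fold, and TPM1 rose 1.17-fold. Of all genes 5.67% were called higher and 9.6% lower after DOX, while 8 of the 8 tested members were called higher and 0 lower. The median log2 change was 0.79 over the 8 members and −0.0047 over all genes. In all 8 the damage arrays lay above every pluripotent array, which was the case for 11.5% of all genes.

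After 2 days of RA, 5 of the 8 tested members were lower (ACTG2, CALD1, VCL, MYL9 and CNN1), TPM1 was higher, and CNN2 and TPM2 did not pass the test. Of all genes 3.32% were called lower and 3.16% higher after RA. The median log2 change was −0.61 over the 8 members and −0.0041 over all genes. The differentiating arrays lay below every pluripotent array for those 5 of the 8 genes, against 12.5% of all genes. Both comparisons use the same pluripotent arrays, so their values are set side by side and not taken as independent of each other.

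**Figure D1:**
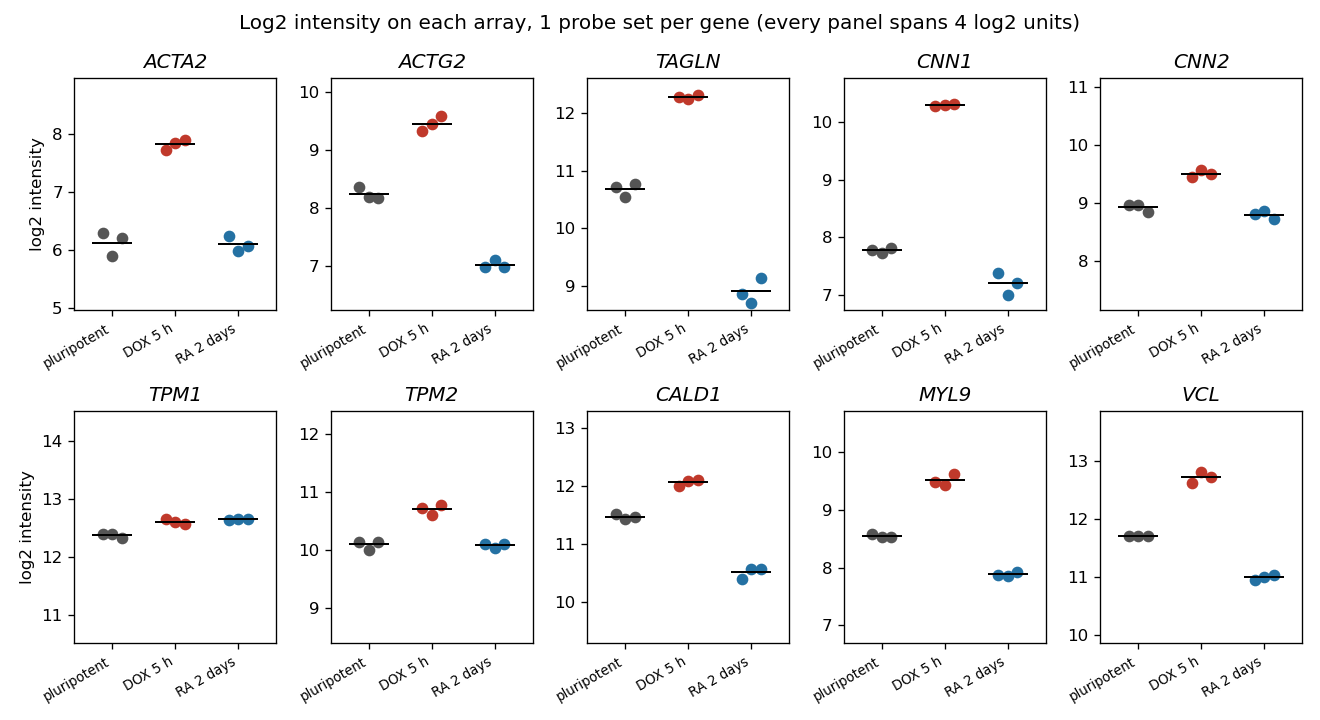
Log2 intensity of the 10 genes on each of the 9 arrays, 1 panel per gene with a vertical span of 4 log2 units. Points are arrays and black lines are group means (n = 3). The DOX arrays lie above the pluripotent arrays in every panel, and the RA arrays lie below them for ACTG2, TAGLN, CNN1, CALD1, MYL9 and VCL.

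ACTG2 encodes the gamma actin of enteric smooth muscle. Its log2 intensity was 8.36, 8.18 and 8.18 on the 3 pluripotent arrays, 9.34, 9.45 and 9.58 on the damage arrays, and 6.98, 7.10 and 6.99 on the differentiating arrays. The 3 groups did not overlap, with the damage arrays highest and the differentiating arrays lowest. The rise after DOX was 1.21 ± 0.08 (log2 change ± SE, limma adjusted p = 4.6e-06) and the change after RA was −1.22 ± 0.08 (adjusted p = 8.4e-06), a 2.33-fold fall. The second ACTG2 probe set lay below the median probe set, and its changes were 0.03 and 0.17.

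ACTA2 encodes the alpha actin of vascular smooth muscle, which is also the usual mark of a myofibroblast. On the log2 scale it read 6.29, 5.89 and 6.21 on the pluripotent arrays, 7.73, 7.85 and 7.91 on the damage arrays, and 6.25, 5.99 and 6.06 on the differentiating arrays. The damage arrays stood above all others, while the pluripotent and differentiating arrays overlapped. The difference was 1.70 after DOX, a 3.25-fold rise, and −0.03 after RA. These values come from 1 of 3 probe sets. The other 2 were below the median probe set, with DOX differences of 0.18 and 0.21, and the mean of all 3 gave 0.70.

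ACTA2 overlaps FAS and the antisense RNA gene ACTA2-AS1 in RefSeq. FAS, the death receptor gene and a known p53 target, rose by 3.27 ± 0.11 after DOX (adjusted p = 2.3e-08), from 4.30 ± 0.24 to 7.57 ± 0.07 (mean ± SD, n = 3 arrays each). The pluripotent level of FAS lay below the median probe set and is not shown to be above background, so the size of its change is uncertain. The ACTA2-AS1 probe set stayed near 4.09 to 4.18 in those groups (log2 change 0.09, adjusted p = 0.56). After RA neither passed the test, at 0.27 for FAS (adjusted p = 0.23) and −0.03 for ACTA2-AS1 (adjusted p = 0.93). Probe sequences were not used here, so whether transcripts of FAS reach the ACTA2 probe set was not tested. Nor was hybridisation between the actins, whose coding sequences are closely related.

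TAGLN encodes transgelin, an actin-binding protein that appears early in smooth muscle differentiation. Its log2 intensity was 10.72, 10.54 and 10.76 on the pluripotent arrays, 12.27, 12.24 and 12.31 on the damage arrays, and 8.88, 8.71 and 9.15 on the differentiating arrays. The 3 groups stood well apart from each other. The difference was 1.59 after DOX (3.02-fold) and −1.76 after RA (3.40-fold lower). A second probe set gave 1.43 and −1.51. The third gave 1.25 after DOX but 0.05 after RA, with overlapping pluripotent and differentiating arrays (6.06 to 6.55 and 6.14 to 6.55), so the probe sets of TAGLN disagree on RA.

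CNN1 encodes calponin 1, which binds actin and slows the myosin motor and is among the more specific marks of smooth muscle. Its log2 intensity was 7.79, 7.74 and 7.82 on the pluripotent arrays, 10.27, 10.28 and 10.31 on the damage arrays, and 7.39, 7.01 and 7.22 on the differentiating arrays. The damage arrays differed among themselves far less than they differed from the others. CNN1 rose by 2.50 ± 0.09 after DOX (adjusted p = 4.3e-08), and 99.8% of all genes had a lower change. It fell by 0.58 on the log2 scale after RA (SE 0.09, adjusted p = 0.0029). Only 1 probe set stands for CNN1.

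CNN2 encodes calponin 2, the form found widely outside muscle. Log2 intensities of CNN2 were 8.96, 8.97 and 8.84 on the pluripotent arrays, 9.44, 9.56 and 9.50 on the damage arrays, and 8.81, 8.86 and 8.72 on the differentiating arrays. It rose by 0.58 ± 0.07 after DOX (adjusted p = 3.3e-04). After RA the change was −0.12 (95% interval −0.28 to 0.03, adjusted p = 0.44), and the arrays overlapped. Its single probe set carries the suffix x_at, which marks probes that can also match other transcripts.

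Tropomyosins lie along the actin filament and govern which proteins reach it. TPM2 was at 10.14, 10.00 and 10.14 on the pluripotent arrays, 10.72, 10.60 and 10.78 on the damage arrays, and 10.10, 10.04 and 10.10 on the differentiating arrays. It rose by 0.60 ± 0.07 after DOX (adjusted p = 3.0e-04) and was at −0.01 after RA (95% interval −0.18 to 0.15, adjusted p = 0.96). Of its 4 probe sets 3 were called higher after DOX and 0 of 4 in either direction after RA.

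TPM1 was the only tested member called higher after both treatments. TPM1 read 12.41, 12.40 and 12.34 on the pluripotent arrays, 12.65, 12.61 and 12.57 on the damage arrays, and 12.65, 12.66 and 12.66 on the differentiating arrays. Both treated groups lay above the pluripotent arrays and overlapped each other. The rise was 0.23 ± 0.06 after DOX (adjusted p = 0.028) and 0.28 ± 0.06 after RA (adjusted p = 0.022). Both calls are marginal. The DOX call was lost in 9 of 19 alternative settings (highest adjusted p = 0.077) and the RA call in 8 of 19 (highest adjusted p = 0.075), including every fit without 1 pluripotent array. All 6 of its probe sets had changes above 0 in both comparisons, from 0.19 to 0.56 after DOX and from 0.27 to 0.76 after RA. With p-values adjusted over all probe sets, 2 of the 6 were called higher after DOX and 1 after RA. The largest change in each comparison came from the same probe set, which was not called (adjusted p = 0.24 and 0.18).

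CALD1 encodes caldesmon, which inhibits the interaction of myosin with actin and exists in a long form of smooth muscle and a short form of other cells. Its log2 intensity was 11.52, 11.43 and 11.47 on the pluripotent arrays, 12.00, 12.09 and 12.10 on the damage arrays, and 10.39, 10.57 and 10.57 on the differentiating arrays. The groups did not overlap. The rise after DOX was 0.60 ± 0.07 (adjusted p = 3.2e-04), and CALD1 fell after RA by 0.96 on the log2 scale (SE 0.07, adjusted p = 1.6e-05).

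CALD1 has 11 probe sets. With p-values adjusted over all probe sets, 9 were called higher after DOX and 0 lower. Changes of all 11 ran from 0.53 to 2.50, and the 2 without a call were at 0.53 and 0.63 (adjusted p = 0.077 and 0.097). The largest belonged to a dimmer probe set that read 5.26, 4.56 and 5.28 on the pluripotent arrays and 7.92, 7.35 and 7.33 on the damage arrays (2.50, limma adjusted p = 4.3e-05). Others read a rise of 1.74 and 1.37. A further 2 of the 9, at 1.65 and 0.97, started below the median probe set, so their lower level is not shown to be above background. After RA only 4 of the 11 were called lower and 0 higher. These 4 all had pluripotent levels above 8. The 3 dimmer probe sets with DOX changes of 2.50, 1.74 and 1.37 were at −0.32, −0.29 and −0.03 after RA. Their pluripotent means (5.03, 5.11 and 4.93) were near the median probe set. These levels are not shown to be above background, so a fall there could be missed. Brighter probe sets also lacked a call after RA. One with a pluripotent mean of 5.55 was at 0.23 (adjusted p = 0.66), and 1 with a mean of 6.45 was at −0.37 (adjusted p = 0.37). Which CALD1 transcripts the probe sets read was not tested.

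MYL9 encodes the regulatory light chain through which phosphorylation switches on smooth muscle and non-muscle myosin. Its log2 intensity was 8.57, 8.52 and 8.52 on the pluripotent arrays, 9.48, 9.43 and 9.61 on the damage arrays, and 7.88, 7.86 and 7.92 on the differentiating arrays. It rose by 0.97 ± 0.07 after DOX (adjusted p = 5.0e-06) and fell by 0.65 on the log2 scale after RA (SE 0.07, adjusted p = 1.7e-04). Its dimmer probe set also rose after DOX, by 0.67 (adjusted p = 0.022 over all probe sets), but was at −0.11 after RA (adjusted p = 0.86).

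VCL encodes vinculin, which ties actin filaments to integrin and cadherin adhesions. VCL read 11.71 on each of the 3 pluripotent arrays, 12.63, 12.82 and 12.73 on the damage arrays, and 10.96, 11.01 and 11.03 on the differentiating arrays. Again the 3 groups did not overlap. VCL rose by 1.02 ± 0.07 after DOX (adjusted p = 3.2e-06) and fell by 0.71 on the log2 scale after RA (SE 0.07, adjusted p = 8.8e-05). Its other probe set lay below the median probe set, at 0.08 and 0.06.

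**Figure D2:**
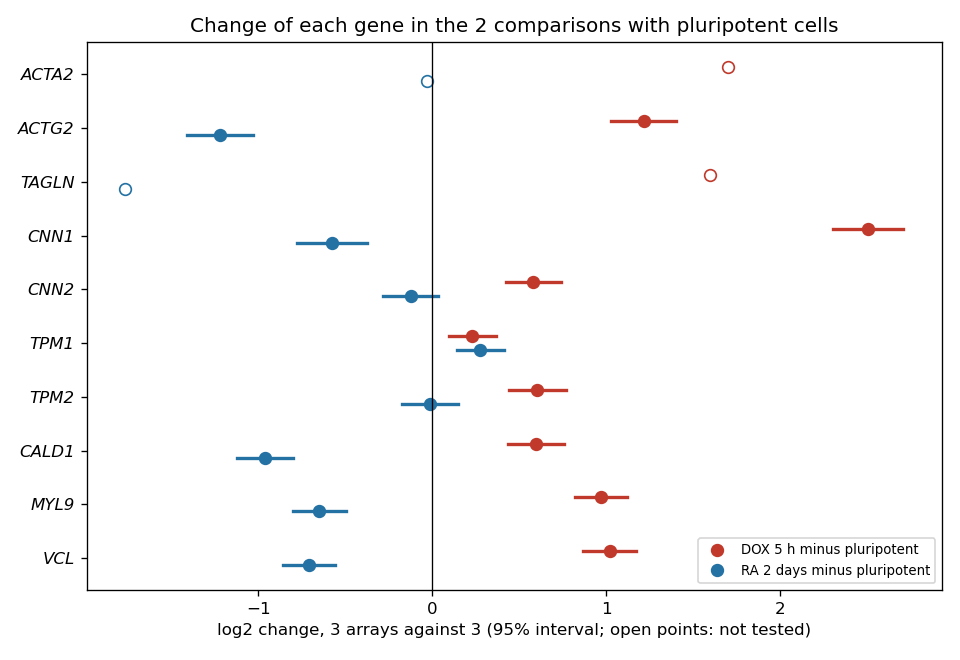
Log2 change of each gene on the horizontal axis, for DOX minus pluripotent and RA minus pluripotent (3 arrays against 3). Bars are 95% intervals from limma, and open points without bars are ACTA2 and TAGLN, which were not tested. CNN1 has the largest rise after DOX (2.50), and TPM1 alone has both intervals above 0.

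Over all probe sets of the 8 tested genes, 20 of 29 were called higher and 0 lower after DOX, where 3.2% of all 54613 probe sets were called higher. After RA 8 of the 29 were called lower and 1 higher, against 1.48% and 1.47% of all probe sets. Of the 29, 22 had a mean above the median probe set, and these include 17 of the 20 rises and all 8 falls. Of these 22, 13 had no call after RA, so a mean below the median does not mark all the probe sets that failed to pass. Some of the 22 lay near the median.

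**Figure D3:**
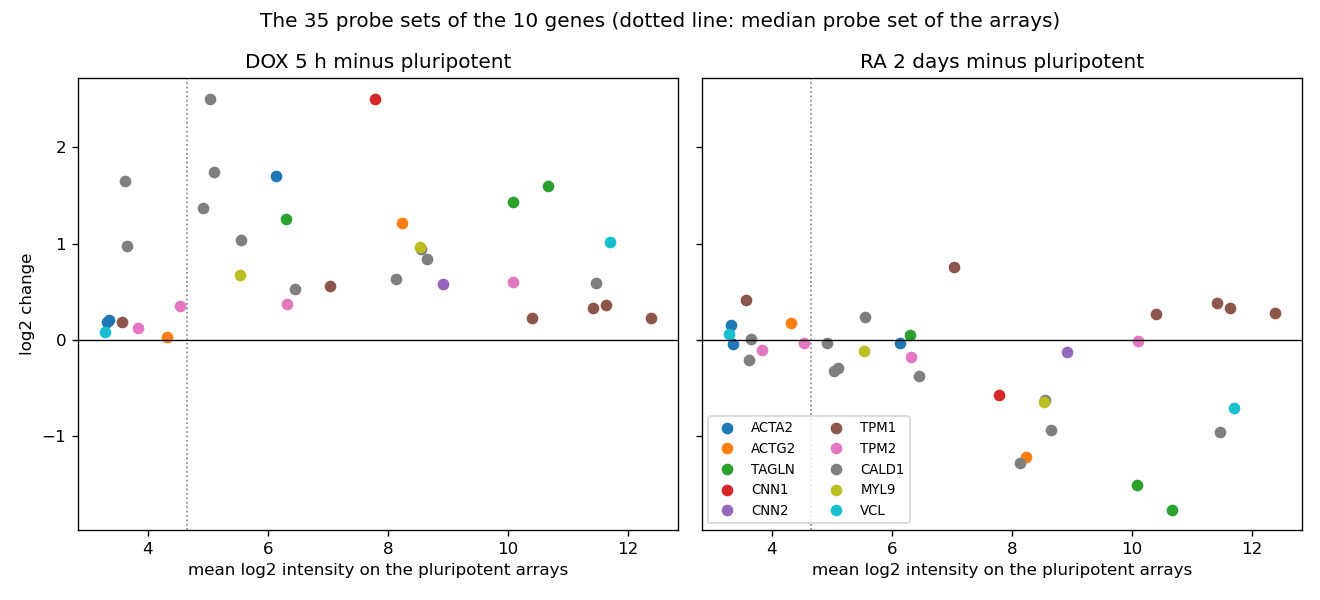
Log2 change of the 35 probe sets after DOX and after RA, against their mean log2 intensity on the pluripotent arrays. Each point is a probe set, coloured by gene, and the dotted line is the median probe set. The 11 CALD1 probe sets run from 0.53 to 2.50 after DOX, and those with clear falls after RA lie at the brighter end.

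A direct comparison of the treatments gave the widest differences for the members other than TPM1. It is the difference between the 2 changes already given, so it is no independent result. Levels on the RA arrays were lower than on the DOX arrays for 7 of the 8 tested members and higher for 0, against 8.62% of all genes lower and 12.6% higher. CNN1 was 8.45-fold lower (−3.08 ± 0.09, adjusted p = 6.0e-09) and ACTG2 5.40-fold lower (−2.43 ± 0.08, adjusted p = 1.4e-08). VCL, MYL9 and CALD1 were lower by log2 differences of −1.73, −1.62 and −1.56, and CNN2 and TPM2 by −0.70 and −0.62. TPM1 was at 0.04 (95% interval −0.09 to 0.18, adjusted p = 0.68). TAGLN differed by −3.36 (10.3-fold) and ACTA2 by −1.73, each on 1 of 3 probe sets. The other TAGLN probe sets gave −2.94 and −1.20. Those of ACTA2, which lay below the median probe set, gave −0.03 and −0.26. The RA arrays lay below every DOX array for 7 of the 8 tested genes, TPM1 being the exception, and for 15.2% of all genes. At the level of probe sets 20 of 29 were lower, against 5.13% of all. As a measure of RNA integrity, the 3′ minus 5′ difference of the ACTB control probe sets ranged from 0.67 to 0.81 on the damage arrays and from 0.83 to 1.54 on the differentiating arrays, and for GAPDH from 0.16 to 0.19 and from 0.13 to 0.21. Its part in the result was not tested.

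Other genes of the same machinery were taken from 3 lists, whose counts, like those of the marker lists, stand beside 5.67% of all genes higher and 9.6% lower after DOX, and 3.16% and 3.32% after RA. Among other actins, tropomyosins, calponins, transgelins and myosin II chains, 7 of 13 measured genes rose and 0 fell after DOX. The strongest were the cardiac actin gene ACTC1 (1.92 ± 0.07, adjusted p = 4.3e-08), the skeletal actin gene ACTA1 (1.36 ± 0.09, adjusted p = 2.0e-06) and the transgelin relative TAGLN3 (0.83 ± 0.15, adjusted p = 0.0033). ACTB, the cytoplasmic actin gene, had a log2 difference of 0.20, which missed the threshold (adjusted p = 0.11). After RA 3 fell and 0 rose, which were ACTC1 (−0.70), TAGLN2 (−0.54) and ACTA1 (−0.40). The median change of the list was 0.25 after DOX and −0.22 after RA. The calls were repeated in 12 other settings (arrays scaled further, array number as a replicate block, or 1 array left out). In these 6 to 7 genes rose after DOX and 2 to 4 fell after RA. The rise of MYL12A was called in 4 of the 12 and the fall of ACTA1 in 9.

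Of 13 measured other contractile genes of smooth muscle, 6 rose and 0 fell after DOX, with a median of 0.24. Examples are the LIM protein gene PDLIM7 (1.48 ± 0.22, adjusted p = 0.0011), the potassium channel subunit gene KCNMB1 (0.77 ± 0.13, adjusted p = 0.0020) and PDLIM3 (0.51 ± 0.08, adjusted p = 0.0013). The pluripotent mean of KCNMB1 (4.41) lay below the median probe set and is not shown to be above background, so the size of its change is uncertain. MYH11, the heavy chain of smooth muscle myosin, was at 5.74 ± 0.04 on the pluripotent and 5.98 ± 0.17 on the damage arrays (mean ± SD, n = 3 each; log2 change 0.24, SE 0.09, adjusted p = 0.089). After RA 1 gene fell, PDLIM3 (−0.68), and 0 rose, with a median of 0.04. Over the 12 other settings 5 to 7 genes rose after DOX and 1 to 2 fell after RA. The rise of SMTN was called in 8 of the 12.

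SRF and its coactivators were read by name. SRF rose by 0.82 ± 0.09 after DOX (adjusted p = 1.2e-04) and was at −0.18 after RA (adjusted p = 0.35). MYOCD, the coactivator myocardin, rose after DOX by 0.52 ± 0.12 from a level of 5.08 (adjusted p = 0.015) and was at 0.05 after RA (adjusted p = 0.89). The coactivator genes MRTFA and MRTFB did not pass the test after DOX, at −0.26 (adjusted p = 0.16) and −0.12 (adjusted p = 0.45), or after RA, at −0.20 (adjusted p = 0.41) and 0.02 (adjusted p = 0.95).

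Adhesion linkers and actin crosslinkers rose in 10 of 16 cases and fell in 2 after DOX, with a median of 0.36. FHL2, a LIM protein that binds integrins and SRF, rose by 1.34 ± 0.07 (adjusted p = 3.1e-07), the zyxin gene ZYX by 0.87 ± 0.07 (adjusted p = 1.6e-05) and the paxillin gene PXN by 0.51 ± 0.08 (adjusted p = 0.0016). The talin gene TLN1 (−0.40) and the focal adhesion kinase gene PTK2 (−0.23) fell, and 0 genes of the list were called lower without the first or the second pluripotent array or the third damage array, and 1 without the first or the second damage array. After RA 6 fell and 0 rose, led by PXN (−0.57 ± 0.08, adjusted p = 0.0014), LPP (−0.50 ± 0.07, adjusted p = 0.0019) and PARVA (−0.43 ± 0.07, adjusted p = 0.0046), with a median of −0.24. Over the 12 other settings 10 to 11 genes of the list rose after DOX and 4 to 6 fell after RA. The fall of ILK after RA was called in 7 of the 12 and that of FHL2 in 8. Between the treatments, RA levels were lower than DOX levels for 12 of these 16 genes and higher for 1 (PTK2, 0.24), and for 11 of the 13 other actins and relatives with 0 higher. They were lower for 6 of the 13 contractile genes, with 1 higher (MYLK, 0.37). The MYLK call held in 5 of the 12 other settings and that of PTK2 in 8.

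**Figure D4:**
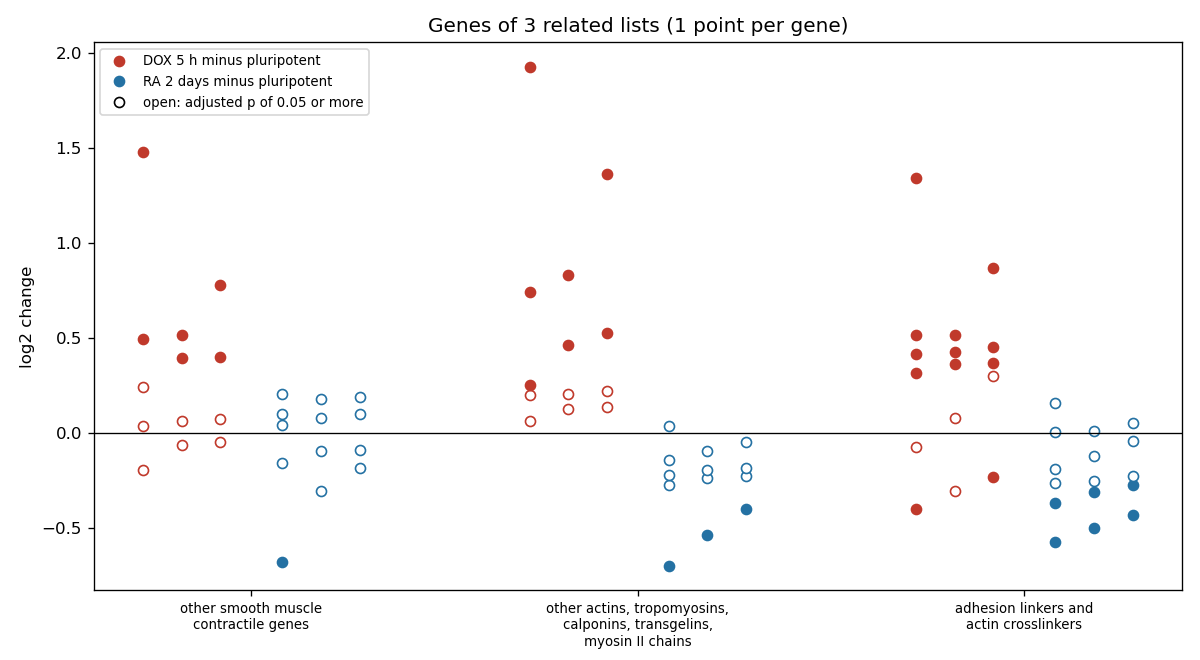
Log2 change of each measured gene of the 3 lists after DOX (left in each list) and after RA (right). Each point is a gene; filled points passed limma's test at an adjusted p under 0.05 and open points did not. Filled points after DOX lie above 0 except for TLN1 and PTK2, filled points after RA lie below 0, and ACTC1 stands highest at 1.92.

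Markers of other cell types were read beside these changes. Of 9 smooth muscle and pericyte markers, 2 rose after DOX, SMTN (0.49) and MYOCD, 0 fell, and the mean log2 level of the list went from a range of 5.61 to 5.65 on the pluripotent arrays to 5.76 to 5.87 on the damage arrays and 5.68 to 5.73 on the differentiating arrays. Without the first damage array 0 of them rose, and 1 rose without the third damage array or the first or second pluripotent array. In the other direction, 3 rose without the second damage array and 3 with the array number as a replicate block. MYH11, LMOD1 and DES did not pass the test in any comparison, and LMOD1 and DES lay between 4.90 and 5.20 in every group mean, close to the median probe set. CSPG4 lay below it. Of 12 fibroblast markers 3 rose after DOX, COL1A1 (1.08), S100A4 (0.41) and THY1 (0.33), and PDGFRA fell (−0.42). Without the second pluripotent, the second damage or the third damage array only 1 rose. Their mean level ranged from 6.06 to 6.11 on the pluripotent, 6.24 to 6.29 on the damage and 6.01 to 6.08 on the differentiating arrays. LUM, POSTN and FAP lay below the median probe set.

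After RA 2 fibroblast markers rose, COL1A1 (1.00) and COL3A1 (0.57), and 3 fell, COL6A3 (−0.73), FBN1 (−0.48) and THY1 (−0.37); without the second or the third pluripotent array or the second differentiating array 1 fell. Of 8 cardiac and skeletal muscle markers 1 rose after DOX, the atrial light chain gene MYL7 (1.01 ± 0.10, adjusted p = 9.5e-05), and 1 fell, TNNI3 (−0.43), a call lost without the first or second pluripotent array or the second damage array. After RA MYL7 fell (−0.44), a call lost without the second or the third pluripotent array or any 1 differentiating array. MYH7 and MYOG lay below the median probe set, and the mean level of that list ranged from 5.17 to 5.23, 5.20 to 5.35 and 5.09 to 5.16 on the pluripotent, damage and differentiating arrays. Of 6 endothelial markers 0 rose after either treatment and KDR fell after DOX (−0.63), a call lost without the first or second pluripotent array or the third damage array. CDH5 and VWF lay below the median probe set, and the endothelial mean ranged from 5.32 to 5.40, 5.25 to 5.27 and 5.19 to 5.34 in the same order of groups. Pluripotent stem cell markers stayed high, with mean levels of 12.4 on the pluripotent arrays, 12.2 to 12.3 on the damage arrays and 12.4 to 12.6 on the differentiating arrays. Among the 6 measured, SOX2 fell after DOX (−0.46) and NANOG after RA (−0.34). The NANOG call held in 5 of 12 other settings and was lost without any 1 pluripotent array, any 1 differentiating array or the third damage array. The part of other cell types in the members' changes was not tested.

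The genes whose profile lay closest to ACTA2 and TAGLN were ranked by the root mean square difference over the 9 arrays, after each gene was centred on its pluripotent mean, among 9886 genes above the median gene. Closest to ACTA2 were AMOTL2 (0.15 log2 units), DUSP1 (0.17), SOCS2 (0.18), LMNA (0.20) and JUNB (0.21). These rose by 1.58 to 1.70 after DOX and were between −0.22 and 0.11 after RA. Closest to TAGLN were CAV1 (0.24), ANXA1 (0.27), ANXA3 (0.33), COL12A1 (0.34) and DUSP6 (0.37). These rose by 1.30 to 1.78 after DOX and were between −2.27 and −1.31 after RA. The ranking used these same values, so changes near those of ACTA2 and of TAGLN follow from the choice and are no separate result. The distance between ACTA2 and TAGLN themselves was 1.01, and none of the other members was among the 5 closest to either.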

How the data were processed

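For each probe set and each of 9 Affymetrix arrays the authors deposited a log2 value. Per the submitters' processing notes, RMA and affy produced them (versions: not given in the sources used here). The RMA method corrects background, quantile-normalises arrays and summarises each probe set, which compresses changes of dim probe sets and removes shifts shared by most genes. The log2 scale was read from the range of values, 2.36 to 14.8.

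The members and lists were chosen with earlier results of these data known. Of 54675 probe sets, 62 controls were left out. Of the rest, 41091 are annotated to a single gene, 1801 to several and 11721 to none. Entrez identifiers matched RefSeq (GRCh38.p14) for 41037. Each gene was represented by its probe set with the highest mean, giving 19775 genes. limma 3.58.1 in R 4.3.3 fitted the 3 groups together, without filtering (residual degrees of freedom 6, prior 4.63), and the fit was repeated on all 54613 probe sets. Named genes were all members, up to 3 called genes with the largest changes per reported list and comparison, SRF and its coactivators, MYH11, the markers with the largest changes, and the 5 genes nearest to ACTA2 and to TAGLN. The genes overlapping ACTA2, the genes beside the members and the other unchanged genes named were chosen after their values were seen. On simulated arrays for the damage comparison over 19775 genes the fit recovered 80.6% of changes of 0.5 and 100% of changes of 1 or 2. Of 198 calls 11 were false. The simulated noise was normal and independent between genes and arrays, at the spread fitted by limma, so rates in the real data may differ. The number of arrays limits precision. One gene list is not reported here.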

Additional observations from a re-analysis of the deposited data

How the results depend on the processing

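Of the recomputed log2 changes of members, 535 kept their direction and side of the threshold (for ACTA2 and TAGLN, moved by less than the spread between arrays), 18 lost a call, 7 moved further and 4 changed sign. After DOX the count of 8 higher members was 7 to 8 when any 1 array was left out, and 5 of 6 genes once probe sets ending in x_at or s_at were left out, where CNN2 and VCL have none. After RA the count of 5 lower members was 5 in each fit that left out 1 array and 3 without x_at and s_at probe sets. The single higher member, TPM1, gave a count of 0 to 1 over these fits, 0 without x_at and s_at probe sets and 0 with every probe set tested alone. Without x_at and s_at probe sets TAGLN was at 0.0513 after RA in place of −1.76, and MYL9 lost its call (−0.12, adjusted p = 0.82). TPM2 after RA was at 0.009 without the first pluripotent array, 0.00809 without the third and 0.00716 without the second differentiating array, and the fits without 1 array ran from −0.0599 to 0.009. Over all its alternatives the lowest value was −0.18, without x_at and s_at probe sets, and adjusted p-values ran from 0.44 to 1. With the mean of all probe sets ACTA2 was at 0.70 after DOX.

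Over all genes, those lower after DOX numbered 1129 to 2208 when 1 array was left out (1183 and 1129 without the first and second pluripotent arrays), and after RA those lower numbered 435 to 644 and those higher 406 to 609. Lower genes after RA numbered 407 without x_at and s_at probe sets. With every probe set alone 1745 were higher after DOX, and 3882 higher and 2802 lower between RA and DOX. Centring each array left 968 higher and 2135 lower after DOX, and a further quantile normalization 1241 and 1635, against 1121 and 1898. Array numbers are shared between groups, but deviations of same-numbered arrays correlated at −0.10 to 0.20, and the labels name no shared culture, so the numbers were not taken to pair the arrays. With the number as a replicate block, 8 members rose after DOX and 5 fell after RA, as without it, and 1147 genes were higher and 1934 lower after DOX. Dim probe sets, near or below the median, limit what can be said of ACTA2, MYH11 and the muscle markers.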

Other observations

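The measured genes that overlap or lie next to the members in RefSeq were looked up after the members' values were seen. There were 26 of them, 6 overlapping a member. After DOX 2 of the 26 rose and 4 fell, where 5.67% and 9.6% of all genes did. After RA 1 rose and 1 fell, where 3.16% and 3.32% of all genes did. These few calls are near those shares, so the genes are given as values only. Those that rose after DOX were FAS (3.27), which overlaps ACTA2, and LOC100652768 (0.49 ± 0.11, adjusted p = 0.011), which overlaps TAGLN. The other genes overlapping a member were ACTA2-AS1 at ACTA2, PCSK7 at TAGLN (0.06, adjusted p = 0.66), DLGAP4-AS1 at MYL9 (−0.03, adjusted p = 0.88) and AP3M1 at VCL, which fell by 0.28 on the log2 scale after DOX (adjusted p = 0.030). TLN1, the neighbour of TPM2, fell after DOX (−0.40). STAMBPL1, beside ACTA2, fell by 0.55 (adjusted p = 0.035) and BPGM, beside CALD1, by 0.57 (adjusted p = 0.019). After RA TGIF2, next to MYL9, rose (0.39, adjusted p = 0.032) and STAMBP, next to ACTG2, fell (−0.36, adjusted p = 0.0075).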
